A study of Rattus norvegicus with 6 samples.

Results

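The genes described here are 10 rat genes of the cyclic AMP (cAMP) pathway and its transcriptional output, read in nucleus pulposus cells (NPCs) under oxidative stress with or without FGF21. They are Adcyap1r1, Sik1, Sik2, Sik3, Creb1, Crem, Crtc2, Pde4b, Pde4d and Sst, taken by symbol from the 20264 rows of the combined count table. All 10 had counts in every library and were among the 11426 genes that passed the filter on low counts. They were chosen with the TBHP+FGF21 against TBHP comparison of these same libraries already known, so their differences in that comparison are a description and support nothing by themselves.

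Polyadenylated RNA was sequenced from 6 libraries of primary NPCs taken from the tail discs of male wild type Sprague-Dawley rats and grown in DMEM/F12 with serum. The TBHP group (n = 3) received tert-butyl hydroperoxide, an oxidant used to bring on senescence, and the TBHP+FGF21 group (n = 3) received TBHP together with recombinant rat FGF21, a hormone-like fibroblast growth factor. Every library was therefore exposed to TBHP, and no untreated library was analysed here. The age of the animals and, for these libraries, the doses and times are not given in the sources used here. The treatment label of the TBHP+FGF21 group reads FGF21 only in replicate 1. Replicate 2 is labelled FGF22 and replicate 3 is labelled FGF23, whereas the design and treatment text give FGF21 for the whole group, and that grouping was used. The replicates are called biological, but nothing states that they came from separate animals, so the errors measure the spread between these libraries only. In bulk RNA, fewer cells of a type and less RNA per cell cannot be told apart.

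Receptors coupled to the stimulatory G protein switch on adenylyl cyclase, and the cAMP it makes activates protein kinase A. Protein kinase A phosphorylates CREB, which binds the cAMP response element (CRE) in promoters, and it also inhibits the salt-inducible kinases (SIKs), which otherwise hold the CREB coactivators of the CRTC family in the cytoplasm. Phosphodiesterases of the PDE4 family break cAMP down, and SIK1 and CREM, themselves products of CREB target genes, act as feedback brakes.

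CREB acts through the CRE, so the promoters of the 10 genes were searched for it. Windows of 300 bases, from 250 before to 50 from the annotated start on, came from RefSeq (rat build GRCr8). The whole CRE is TGACGTCA, which reads the same on both strands, and the short CRE motif is TGACG or, on the other strand, CGTCA, so that every whole CRE also holds the short one. Among the 10 genes, all of which had at least 1 window, Sst and Crem held the whole CRE, and 8 genes held the short motif, the exceptions being Adcyap1r1 and Pde4b. Of all 33469 rat promoter windows, 1.83% held the whole CRE and 21.2% the short motif. Counted by gene, as the 10 genes are, 3.36% of the 9226 tested genes with a window held the whole CRE and 33.7% the short motif. Each match describes letters in the window and is not evidence that CREB was bound there in these cells.

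The window of Sst, which encodes the peptide hormone somatostatin, and the windows of Crem that hold the whole motif are printed because they are the only whole CREs among the 10 genes. Those of the SIKs are printed because the counts of the 3 kinases are set side by side below and each carries the short motif. Capitals mark the motifs, and every sequence runs 5′ to 3′ on the strand of the gene. The windows lie at chr11:90461296-90461595 on the plus strand for Sst, chr17:58984547-58984846 and chr17:58985240-58985539 on the plus strand for Crem, chr20:9958597-9958896 on the minus strand for Sik1, chr8:60221601-60221900 on the minus strand for Sik2 and chr8:55208764-55209063 on the plus strand for Sik3.
Sst: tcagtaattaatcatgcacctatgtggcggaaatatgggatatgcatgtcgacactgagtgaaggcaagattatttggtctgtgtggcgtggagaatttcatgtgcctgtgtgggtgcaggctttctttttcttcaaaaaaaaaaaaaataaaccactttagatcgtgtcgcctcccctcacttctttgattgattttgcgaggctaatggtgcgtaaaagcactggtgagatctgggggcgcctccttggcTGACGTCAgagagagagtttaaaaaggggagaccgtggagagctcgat
Crem, window 2: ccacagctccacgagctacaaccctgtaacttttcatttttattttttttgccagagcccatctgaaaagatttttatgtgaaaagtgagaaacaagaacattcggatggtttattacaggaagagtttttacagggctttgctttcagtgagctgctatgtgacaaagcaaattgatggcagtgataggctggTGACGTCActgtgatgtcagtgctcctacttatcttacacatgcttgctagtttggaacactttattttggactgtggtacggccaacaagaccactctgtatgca
Crem, window 3: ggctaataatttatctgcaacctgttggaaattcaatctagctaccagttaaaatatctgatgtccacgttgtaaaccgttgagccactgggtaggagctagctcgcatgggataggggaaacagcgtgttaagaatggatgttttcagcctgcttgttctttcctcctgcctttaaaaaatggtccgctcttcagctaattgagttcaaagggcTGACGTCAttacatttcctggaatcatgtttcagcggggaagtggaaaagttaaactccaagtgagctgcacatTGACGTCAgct
Sik1: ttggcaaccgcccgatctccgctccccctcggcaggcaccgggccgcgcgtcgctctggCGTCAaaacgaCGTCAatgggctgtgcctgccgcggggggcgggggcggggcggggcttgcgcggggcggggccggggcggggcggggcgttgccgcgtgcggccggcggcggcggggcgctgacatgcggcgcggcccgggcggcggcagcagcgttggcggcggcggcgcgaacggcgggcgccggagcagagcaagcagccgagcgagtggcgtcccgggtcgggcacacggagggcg
Sik2: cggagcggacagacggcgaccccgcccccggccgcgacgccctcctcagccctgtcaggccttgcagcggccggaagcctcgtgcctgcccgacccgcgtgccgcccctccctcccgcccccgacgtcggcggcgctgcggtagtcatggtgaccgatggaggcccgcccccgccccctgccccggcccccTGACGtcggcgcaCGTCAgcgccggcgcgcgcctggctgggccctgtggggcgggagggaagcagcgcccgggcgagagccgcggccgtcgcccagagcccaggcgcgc
Sik3: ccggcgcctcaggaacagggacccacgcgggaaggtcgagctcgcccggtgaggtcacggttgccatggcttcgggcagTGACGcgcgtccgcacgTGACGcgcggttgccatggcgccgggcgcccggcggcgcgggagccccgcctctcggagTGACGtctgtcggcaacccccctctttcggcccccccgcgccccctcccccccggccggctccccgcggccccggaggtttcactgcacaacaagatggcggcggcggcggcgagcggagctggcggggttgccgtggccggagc

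With the annotated start as 0, the whole CRE of Sst began at base 2. All these positions rest on the annotation, and where transcription began in these cells was not measured. The whole CREs of Crem began at base -56 in window 2 and at bases -35 and 39 in window 3. Sik1 held short motifs beginning at bases -191 and -180, Sik2 at bases -59 and -46, and Sik3 at bases -171, -154 and -95. The short motif of Crtc2, a CREB coactivator, began at base -95. Of the 18 windows of the 10 genes, 7 held neither motif.

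**Figure D1:**
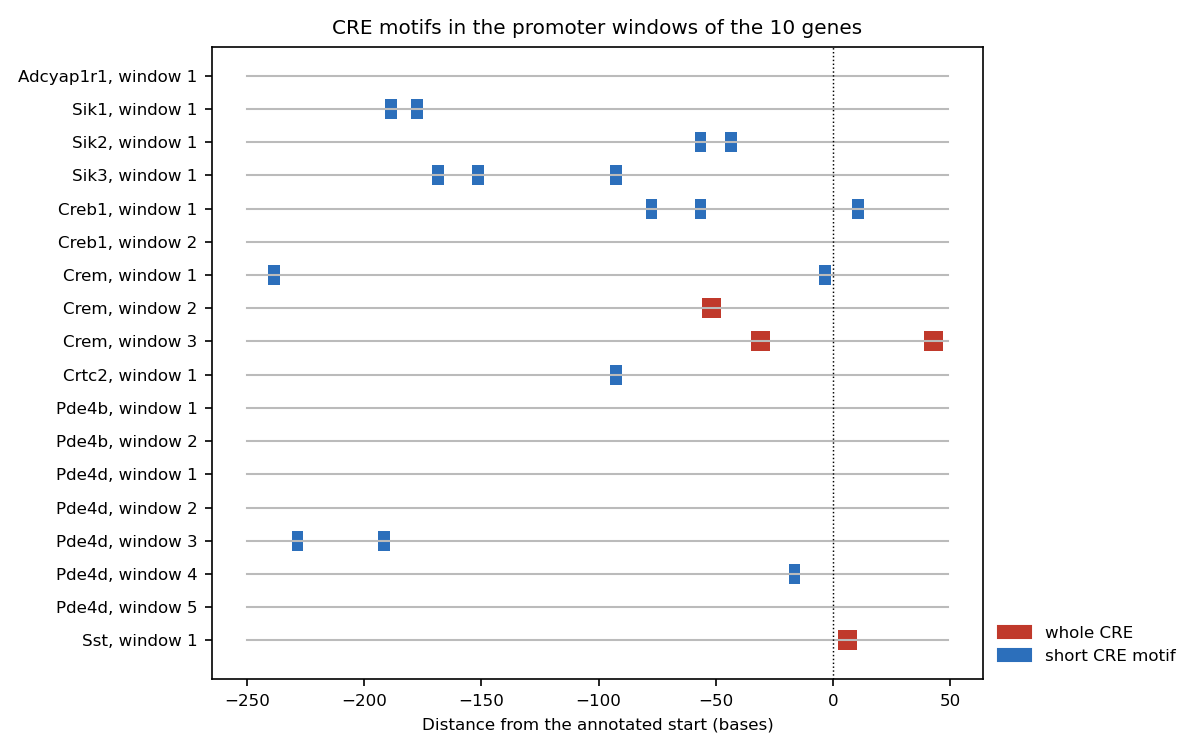
Position of the whole CRE (red) and the short CRE motif (blue) in the 18 promoter windows of the 10 genes, in bases from the annotated start (dotted line). Crem and Sst carry the red motif, and the windows of Adcyap1r1 and Pde4b carry neither.

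Depth was similar across libraries, at 18277732 to 22426190 counts. A gene with 0 counts could still have a level of up to 3 counts, which is 0.134 to 0.164 CPM (counts scaled to the library's total), counting error only. Levels below are CPM after TMM scaling, and differences are log2 fold changes of TBHP+FGF21 minus TBHP with their standard errors (SE) from edgeR's quasi-likelihood fit. Replicate 2 of TBHP+FGF21 was more like the TBHP libraries than like its own group. Its mean Spearman correlation across genes was 0.996 with the TBHP libraries and 0.990 with the other TBHP+FGF21 libraries, whereas replicates 1 and 3 correlated better with their own group (0.993 and 0.992) than with TBHP (0.991 and 0.988). The TBHP libraries correlated with their own group at 0.993 to 0.995, no better than replicate 2 of TBHP+FGF21 did with them. The counts of genes and the values that depend on TBHP+FGF21 replicate 2 are therefore also given without it. It was singled out on these same counts, as the library of its group most like TBHP. Leaving it out gave 867 genes with an adjusted p under 0.05 in edgeR's test, against 0 or 1 with any other library left out. Fold changes and adjusted p without it, here and below, therefore depend on that choice and are a description only. The TBHP group was not uniform either. By chi-square per gene between the counts of library pairs, TBHP replicate 3 was at 15.3 from TBHP+FGF21 replicate 1. It was at 21.1 and 23.3 from TBHP replicates 1 and 2.

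Adcyap1r1, Sik1 and Sst were higher in all 3 TBHP+FGF21 libraries than in any TBHP library, by 1.58 to 2.63 times, whereas the groups overlapped for the other 7 genes. Of the 10 genes, 5 had an unadjusted p under 0.05 (Adcyap1r1, Sik1, Sst, Crtc2 and Pde4b), all of them higher with FGF21, beside 8.92% of all genes tested (4.63% higher). After Benjamini-Hochberg adjustment of edgeR's p over all genes, 0 of the 10 were under 0.05, beside 0.00875% of all genes, and the lowest adjusted p among the 10 was 0.553. After adjustment, 1 of the 10, Sik1, was under 0.05 with DESeq2's Wald test, beside 4 of all 11426 genes. Sik1 was also the 1 of the 10 under 0.05 in edgeR's test with no filter on low counts, beside 5 of all 14882 genes. The groups did not overlap upward for 3 of the 10 and downward for 0, beside 4.9% and 5% of all genes. The median log2 fold change of the 10 was 0.27, with 9 positive and 1 negative, against -0.0052 over all genes tested. Because these genes were selected on this comparison, nothing is read from these counts.

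**Figure D2:**
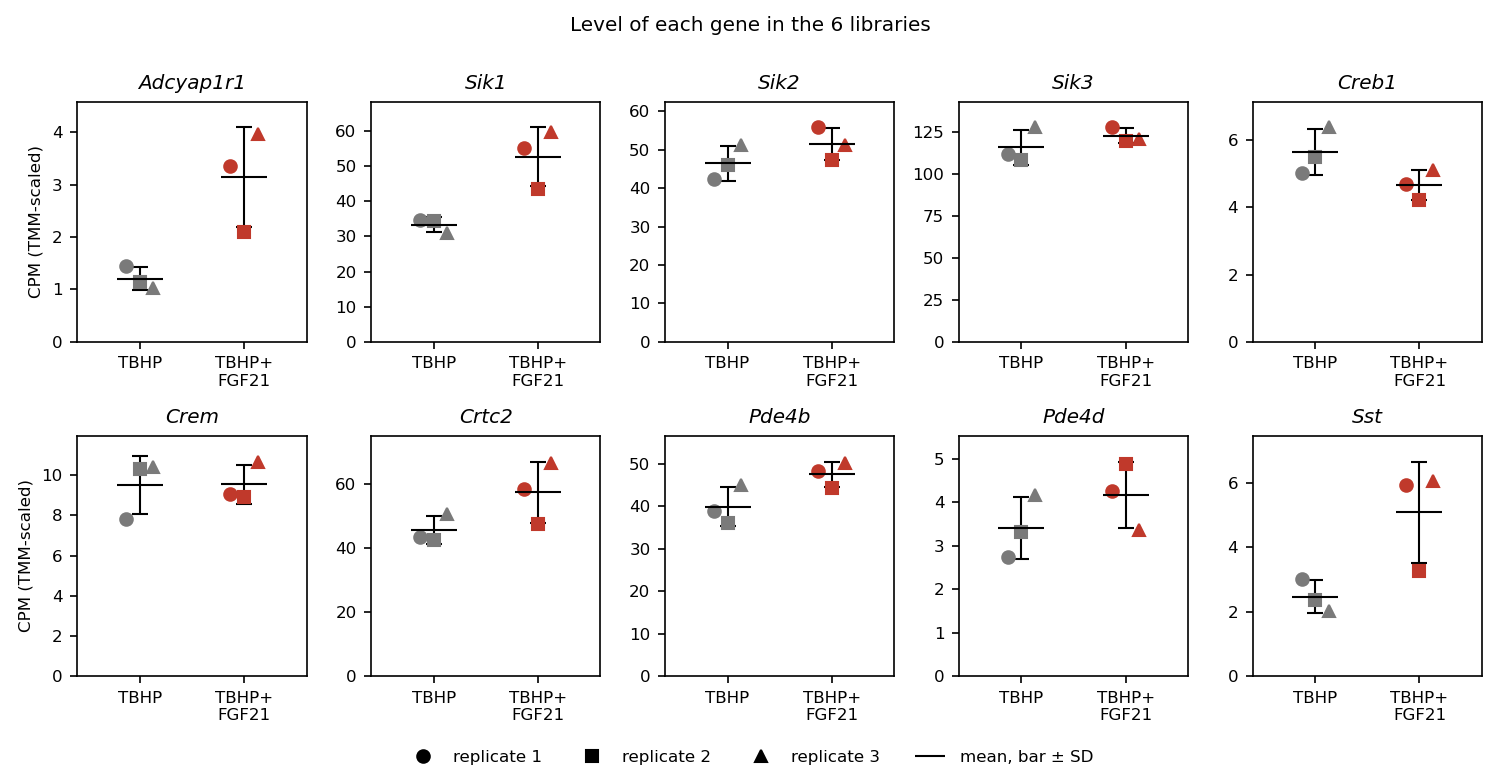
Level of each of the 10 genes in CPM in the 3 TBHP (grey) and 3 TBHP+FGF21 (red) libraries, with the symbol giving the replicate and the line and bar the mean ± SD. The red points of Adcyap1r1, Sik1 and Sst all lie above the grey ones, with replicate 2 (square) the lowest of its group in each.

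Adcyap1r1 encodes the PAC1 receptor, which binds the neuropeptide PACAP and signals through the stimulatory G protein. It had 26, 25 and 22 counts in TBHP replicates 1, 2 and 3 and 71, 44 and 91 counts in TBHP+FGF21 replicates 1, 2 and 3. In CPM these were 1.45, 1.13 and 1.03 against 3.36, 2.11 and 3.97. The groups did not overlap, and replicate 2 lay nearest to TBHP. Group means were thus 1.21 ± 0.220 against 3.15 ± 0.950 CPM (SD, n = 3 each), a log2 fold change of 1.39 (SE 0.28). This gene had the largest difference among the 10. Leaving out each library in turn moved it between 1.20 and 1.62, the latter without TBHP+FGF21 replicate 2.

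The SIKs differed among themselves. Sik1, whose product is made on cAMP stimulation and then restrains CREB coactivators, had 34.6, 34.5 and 30.9 CPM in the TBHP libraries and 55.1, 43.5 and 59.6 CPM in the TBHP+FGF21 libraries. These ranges did not overlap, and the TBHP libraries lay within a narrow band. Its means were 33.3 ± 2.07 and 52.8 ± 8.31 CPM (SD, n = 3 each), a log2 fold change of 0.66 (SE 0.12), and with each library left out it ranged from 0.57 to 0.79.

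Sik2, the relative of Sik1 known from fat and other tissues, had 42.3, 45.9 and 51.2 CPM in TBHP and 55.9, 47.4 and 51.4 CPM in TBHP+FGF21. Sik3, a kinase needed for normal cartilage growth, had 112, 108 and 128 CPM in TBHP and 128, 120 and 121 CPM in TBHP+FGF21. In both, the groups overlapped. The log2 fold change was 0.15 (SE 0.10) for Sik2 and 0.08 (SE 0.09) for Sik3, each less than 2 SE from 0, and without TBHP+FGF21 replicate 2 they were 0.21 and 0.11. Whether Sik1 differed from Sik2 or Sik3 in its response was not tested.

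Among the CREB factors and coactivators, Creb1, the transcription factor that protein kinase A phosphorylates, had 5.03, 5.49 and 6.38 CPM in TBHP and 4.69, 4.21 and 5.10 CPM in TBHP+FGF21. TBHP+FGF21 replicate 3 lay above TBHP replicate 1, so the groups overlapped, and the log2 fold change was -0.27 (SE 0.17). It was the 1 gene of the 10 with a negative value, with an unadjusted p of 0.135 in edgeR's test. Its sign held with any library left out (-0.34 to -0.16), in fits that share most of their libraries.

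Crem, which encodes activators and, from an internal promoter, the cAMP-inducible repressor ICER, had 7.82, 10.3 and 10.4 CPM in TBHP and 9.05, 8.90 and 10.7 CPM in TBHP+FGF21. The groups were interleaved, and the means were 9.51 ± 1.46 and 9.54 ± 0.987 CPM (SD, n = 3 each). The log2 fold change was 0.0031 (SE 0.15), with a range from -0.11 to 0.08 when each library was left out. Crem and Sst are the 2 genes of the 10 with a whole CRE, and whether their differences between the groups were unlike was not tested. Counts per gene do not separate ICER from the other Crem transcripts.

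Crtc2, the coactivator that SIKs phosphorylate, had 43.3, 42.5 and 50.6 CPM in TBHP and 58.3, 47.2 and 66.3 CPM in TBHP+FGF21. Replicates 1 and 3 of TBHP+FGF21 were above every TBHP library, but replicate 2 was below TBHP replicate 3. The log2 fold change was 0.33 (SE 0.13) and ranged from 0.22 without TBHP+FGF21 replicate 3 to 0.46 without replicate 2.

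The phosphodiesterases Pde4b and Pde4d, which degrade cAMP, showed small differences with overlapping groups. Pde4b, itself inducible by cAMP, had 38.8, 36.0 and 45.1 CPM in TBHP and 48.2, 44.3 and 50.2 CPM in TBHP+FGF21, a log2 fold change of 0.25 (SE 0.11), or 0.31 without TBHP+FGF21 replicate 2. Of the TBHP+FGF21 libraries, only replicate 2 lay inside the TBHP range, below TBHP replicate 3. Pde4d had 49, 73 and 89 counts in TBHP and 90, 102 and 77 counts in TBHP+FGF21, a log2 fold change of 0.28 (SE 0.22), or 0.16 without TBHP+FGF21 replicate 2. Pde4d was the 1 gene of the 10 in which TBHP+FGF21 replicate 2 was not the lowest of its group.

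Sst, whose promoter is the classic example of a CRE, had 54, 52 and 43 counts in TBHP and 125, 68 and 139 counts in TBHP+FGF21. In CPM these were 3.02, 2.36 and 2.02 against 5.92, 3.25 and 6.06. The groups did not overlap, although replicate 2 exceeded TBHP replicate 1 by little. The means were 2.46 ± 0.509 and 5.08 ± 1.58 CPM (SD, n = 3 each), a log2 fold change of 1.05 (SE 0.26), with a range of 0.91 to 1.30 when each library was left out.

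Replicate 2 of TBHP+FGF21 lay nearer to TBHP than the other libraries of its group in most of these genes. It was the lowest of its group for 9 of the 10 genes, against 37.0% of all genes tested. Most of the 10 were higher with FGF21, and replicate 2 was singled out as most like TBHP, so nothing is read from that share. The lowest was not always the nearest. For Creb1 the log2 level of replicate 2 minus the TBHP mean was -0.41, against -0.20 for the mean of replicates 1 and 3. For Crem these were -0.08 and 0.06. For Adcyap1r1 the log2 level of replicate 2 exceeded the TBHP mean by 0.82, against 1.61 for the mean of replicates 1 and 3. For Sik1 the same differences were 0.39 and 0.78. For Sst they were 0.42 and 1.30. For Crtc2 they were 0.06 and 0.46, so that replicate 2 was close to the TBHP level. Without replicate 2, 5 of the 10 genes had an unadjusted p under 0.05, beside 23.6% of all genes then tested. After adjustment, 4 of the 10 (Adcyap1r1, Sik1, Sst and Crtc2) were under 0.05 in edgeR's test, beside 7.5% of the 11559 genes (3.78% higher). With only the library labelled FGF21 against TBHP, 3 of the 10 did, beside 2.77%, where the lone library is assumed to vary like the TBHP libraries. The part of replicate 2's label or handling in these values was not tested.

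**Figure D3:**
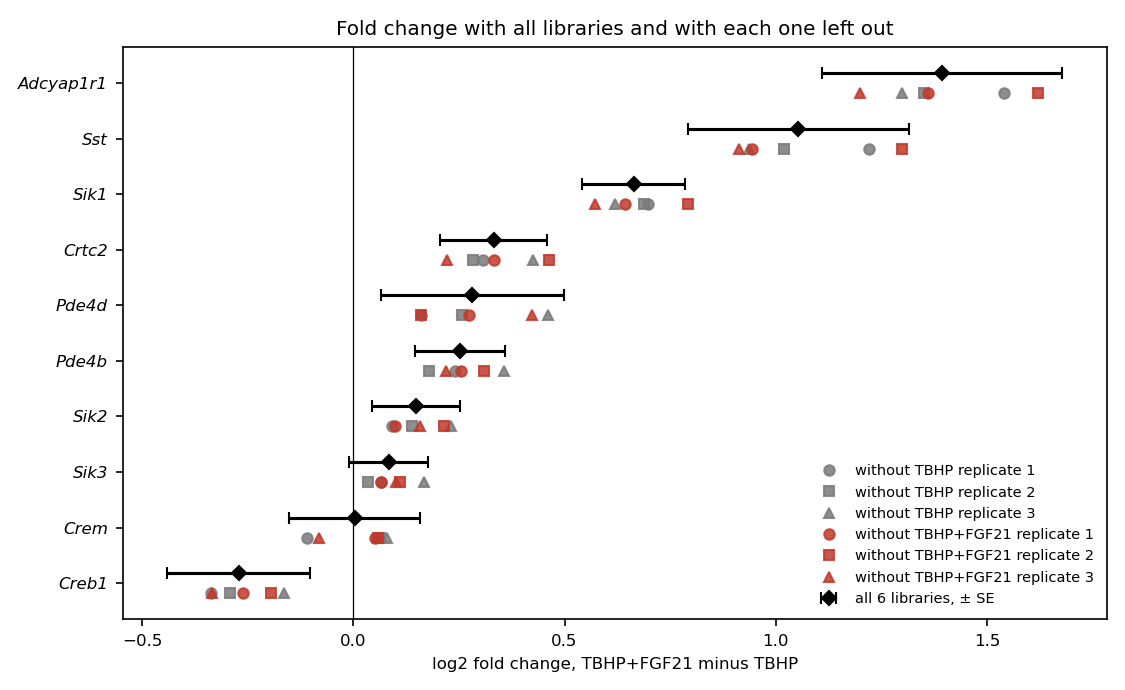
Log2 fold change (TBHP+FGF21 minus TBHP) of each of the 10 genes with all 6 libraries (black, ± SE) and with each library left out. The values of Creb1 stay below 0, Crem crosses 0, and the other 8 genes stay above 0.

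The rest of the pathway was read from a list of 90 textbook genes that excludes the 10 above. The list was drawn up with earlier results of these data known, so it is not independent of them. The table held 87 of them, of which 9 had no count in any library, 18 had counts but did not pass the filter and 60 were tested. Of the 60, 10 were higher and 1 was lower at an unadjusted p under 0.05, beside 4.63% and 4.29% of all genes, and 0 passed after adjustment (lowest adjusted p 0.553 in edgeR's test). DESeq2's Wald test gave 11 higher and 0 lower before adjustment and 0 after it, beside 494 higher, 418 lower and 4 after adjustment over all 11426 genes. The median log2 fold change was 0.08 against -0.0052 over all genes, with 43 positive and 17 negative. The groups did not overlap upward for 8 and downward for 2 of the 60, beside 4.9% and 5% of all genes. Without TBHP+FGF21 replicate 2, 9 of 64 had an adjusted p under 0.05, 8 higher and 1 lower, beside 7.5% of all genes (3.78% higher, 3.72% lower).

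Among ligands, Adcyap1, which encodes PACAP, had 0 to 2 counts per library, and Vip, which encodes the related peptide VIP, had 0 in all 6, so neither was tested. Of 25 receptors listed, 9 were tested and 4 were higher at an unadjusted p under 0.05, beside 4.63% of all genes. Vipr2 encodes VPAC2, the other receptor for PACAP and VIP measured here. It had 63, 82 and 69 counts in TBHP and 163, 80 and 150 counts in TBHP+FGF21, or 3.52, 3.72 and 3.24 CPM against 7.72, 3.83 and 6.54 CPM. The groups did not overlap by a small margin at replicate 2, and the log2 fold change was 0.79 (SE 0.24), or 1.04 without replicate 2. The adjusted p in edgeR's test without that library was 0.0030. Vipr1, the third receptor of the family, had no count in any library.

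The adenosine receptor Adora2b had a log2 fold change of 1.34 (SE 0.45) on 5 to 11 counts in TBHP and 16 to 27 in TBHP+FGF21. The prostaglandin E2 receptor Ptger2 was higher by 0.40 (SE 0.16), and by 0.54 without replicate 2 of TBHP+FGF21 (adjusted p 0.0333 in edgeR's test). The adenosine receptor Adora2a, outside the naming rule and named after its value was seen, was higher by 0.54, and by 0.27 without replicate 3. All 4 are coupled to the stimulatory G protein.

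Downstream of the receptors, none of the 4 tested G protein genes and none of the 8 tested cyclases had an unadjusted p under 0.05 in the fit of all 6 libraries. The most abundant of these in CPM, Gnai2 and Adcy6, had log2 fold changes of 0.08 and 0.10. The smallest p of each class belonged to Gnai1, a G protein that inhibits cyclase, at 0.18 (SE 0.14), and to the cyclase Adcy1, at 0.47 (SE 0.22). For Adcy1 the log2 fold change without TBHP+FGF21 replicate 2 was 0.69, with an adjusted p of 0.0307 in edgeR's test. Among 8 tested genes of protein kinase A and EPAC, the cAMP-activated exchange factor, the catalytic subunit gene Prkacb was higher by 0.32 (SE 0.12) and the regulatory subunit gene Prkar1a had 0.03.

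The A-kinase anchoring proteins, which hold protein kinase A at sites in the cell, gave differences of both signs among 9 tested genes. Akap6 was higher by 0.53 (SE 0.21), by 0.75 without replicate 2 of TBHP+FGF21 (adjusted p 0.0067 in edgeR's test) and by 0.28 without replicate 3. Akap7 was higher by 0.50 (SE 0.18). Akap12, the most variable of those named, had 146, 178 and 220 CPM in TBHP and 95.0, 189 and 76.9 CPM in TBHP+FGF21. Replicates 1 and 3 were below every TBHP library while replicate 2 was inside the TBHP range. Its log2 fold change was -0.59 (SE 0.27) with all libraries and -1.07 without replicate 2, where the adjusted p in edgeR's test was 0.00027.

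Of 9 other phosphodiesterase genes tested, Pde8a, which degrades cAMP, was higher by 0.33 (SE 0.14), and by 0.47 without replicate 2 of TBHP+FGF21 (adjusted p 0.0258 in edgeR's test). Of 4 other CREB factors and coactivators, Crtc3, the relative of Crtc2, had 93, 111 and 124 counts in TBHP and 173, 143 and 180 counts in TBHP+FGF21. The groups did not overlap, and the log2 fold change was 0.51 (SE 0.15), or 0.59 without replicate 2 (adjusted p 0.0414 in edgeR's test). The third coactivator, Crtc1, named after its value was seen, was higher by 0.29, and the CREB relative Atf1 had -0.17 (SE 0.09). Among 9 upstream kinases and substrates of the SIKs, 0 had an unadjusted p under 0.05 with all 6 libraries. Without TBHP+FGF21 replicate 2, 2 of the 9 had an adjusted p under 0.05 in edgeR's test, beside 7.5% of all genes. They were Hdac5 (0.0243) and Hdac9 (0.0151), class IIa histone deacetylases that SIKs phosphorylate. As that library was singled out on these counts, nothing is read from these values.

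**Figure D4:**
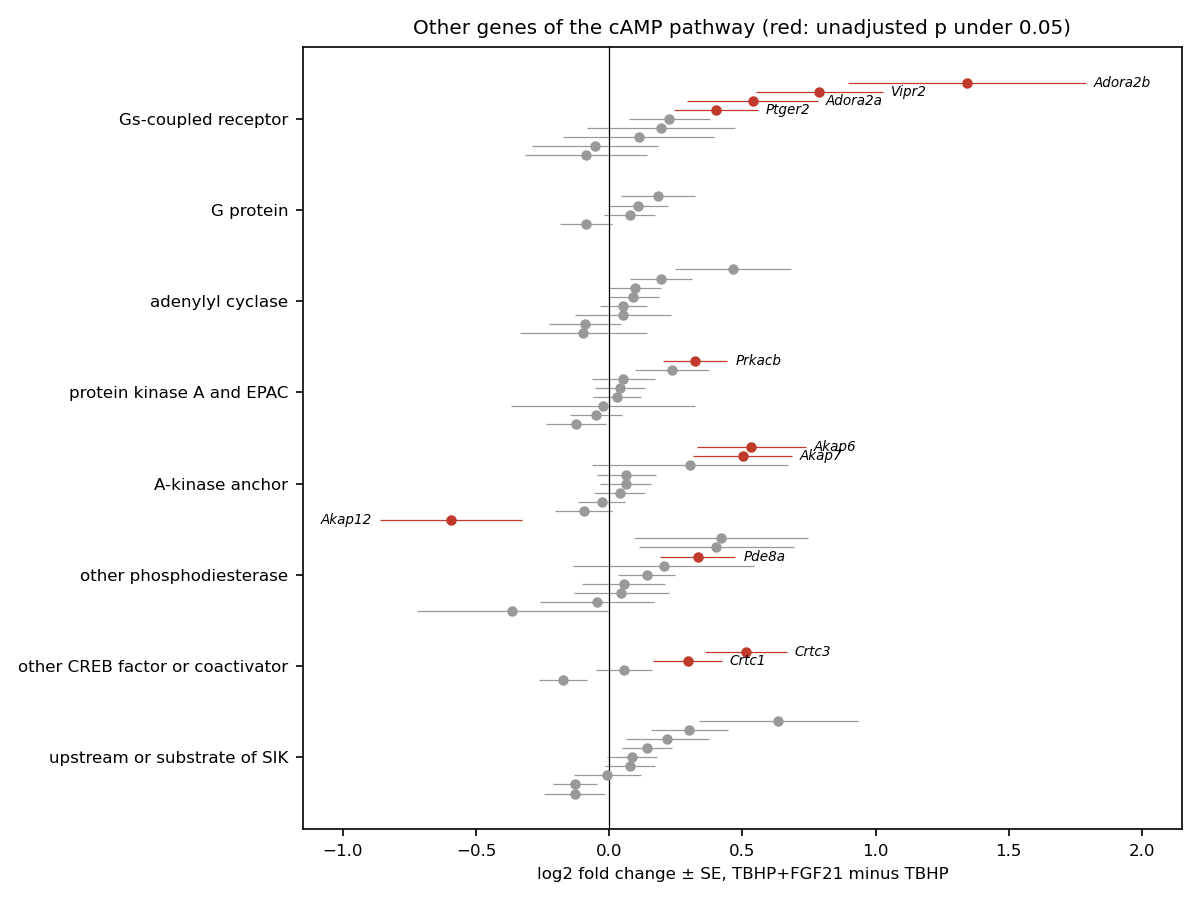
Log2 fold change ± SE (TBHP+FGF21 minus TBHP) of the 60 other pathway genes tested, grouped by role, with genes of unadjusted p under 0.05 in red. Of the 11 red genes 10 lie to the right of 0, 4 of them receptors, and Akap12 lies to the left.

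Known targets of CREB were read from a list of 30 genes, some of which (Fos, Nr4a1, Egr1) had been named in earlier results of these data, so the list is not independent of them. The table held 25 and 17 were tested. Of these, 9 were higher and 0 lower at an unadjusted p under 0.05, beside 4.63% and 4.29% of all genes, and 0 passed after adjustment. With DESeq2's Wald test 10 were higher before adjustment, beside 494 of all 11426 genes. After adjustment 1, Fos, was under 0.05, beside 4 of all genes. Nr4a1 passed adjustment in edgeR's test with no filter on low counts (adjusted p 0.0480), where 5 of all 14882 genes did. In edgeR's test with the replicate number as a block it also passed (adjusted p 0.0436), where 2 of all 11426 genes did. The median log2 fold change was 0.38, with 14 positive and 3 negative, and the groups did not overlap upward for 8 of the 17, beside 4.9% of all genes. Without TBHP+FGF21 replicate 2, 7 of the 17 had an adjusted p under 0.05 in edgeR's test, all higher, beside 3.78% of all genes.

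Fos, an immediate early transcription factor gene, had 12.8, 13.1 and 15.3 CPM in TBHP and 25.2, 22.8 and 19.0 CPM in TBHP+FGF21, a log2 fold change of 0.70 (SE 0.14). Its relative Fosb was higher by 0.44 (SE 0.13) and Egr1, a zinc finger factor of the same early class, by 0.41 (SE 0.11). In all 3 genes replicate 2 lay above every TBHP library.

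Nr4a1, an orphan nuclear receptor gene, had 139, 106 and 132 CPM in TBHP and 225, 150 and 319 CPM in TBHP+FGF21, a log2 fold change of 0.89 (SE 0.21). Per1, a clock gene, had 55.4, 49.1 and 60.1 CPM in TBHP and 94.4, 60.2 and 95.3 CPM in TBHP+FGF21, a log2 fold change of 0.60 (SE 0.16). Penk, which encodes the enkephalin precursor, had 78.4, 78.6 and 71.9 CPM in TBHP and 123, 79.0 and 160 CPM in TBHP+FGF21, a log2 fold change of 0.66 (SE 0.19), or 0.41 without replicate 3 of TBHP+FGF21. In Per1 and Penk replicate 2 sat just above the highest TBHP library, and in Nr4a3, higher by 0.58 (SE 0.20), it lay just below the lowest TBHP library while replicates 1 and 3 were above the highest. Nfil3, which encodes a basic leucine zipper repressor, was higher by 0.24 (SE 0.10).

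Replicate 2 lay with its group in some targets and near TBHP in others. Its log2 level exceeded the TBHP mean by 0.74 for Fos and 0.48 for Fosb, against 0.68 and 0.43 for the mean of replicates 1 and 3. For Nr4a1 the differences were 0.27 and 1.11, for Per1 0.14 and 0.80 and for Penk 0.05 and 0.88. Many of these genes are also known to respond to growth factors through pathways other than cAMP. Through which pathway, if any, they differed here was not tested.

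**Figure D5:**
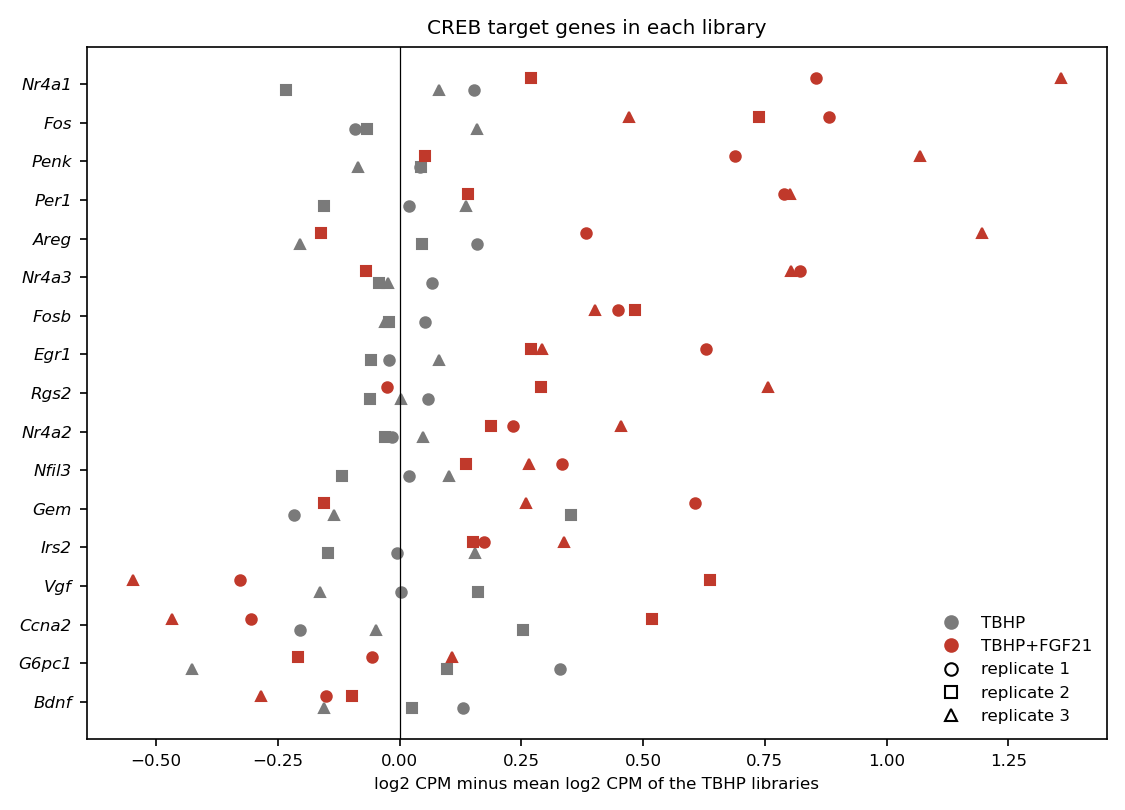
Level of the 17 tested CREB target genes in each library, as log2 CPM minus the mean log2 CPM of the TBHP libraries, with colour giving the group and symbol the replicate. For Fos and Fosb the red square (replicate 2) lies among the red points, while for Penk, Per1 and Nr4a3 it lies beside the grey TBHP points.

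Genes with a whole CRE in the promoter window were taken from sequence alone and so do not depend on the choice of the 10. Of 310 such genes tested, 21 had an unadjusted p under 0.05, or 6.77% (Wilson 95% interval 4.47% to 10.1%, counting error only), beside 8.69% of the 9226 tested genes with a window. Of the 21, 7 were higher and 14 lower with FGF21. The median log2 fold change was -0.02 with the whole CRE and -0.0046 without it. For the 3110 genes with the short motif, 8.04% had an unadjusted p under 0.05, with 109 higher and 141 lower. Without TBHP+FGF21 replicate 2 the share with the whole CRE was 20.6%, with 20 higher and 44 lower, against 23.4% of all genes with a window. The median over genes that carry a whole CRE was thus not above that of the rest.

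Across the 6 libraries, the log2 levels most like those of Sik1 among 7822 genes of at least 10 CPM were those of Ptger1 (Pearson r = 0.996), Npepps (r = 0.981), Csrnp1 (r = 0.976), Shc2 (r = 0.968) and Lhpp (r = 0.967). For Adcyap1r1 they were Sik1 itself (r = 0.992), Def8 (r = 0.982), Ptger1 (r = 0.980), Shc2 (r = 0.979) and Axl (r = 0.979). With 6 libraries in 2 groups, 105 genes had r above 0.9 with Sik1 and 141 with Adcyap1r1, so these are descriptions of the same few libraries.

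Cell type markers were read beside these values because Adcyap1r1 and Sst are best known from neurons and endocrine cells. Of 6 neuron markers, Syp, Rbfox3, Elavl3 and Elavl4 had no count in any library. The summed level of the list was 6.28 to 6.93 CPM in TBHP and 2.88 to 5.31 CPM in TBHP+FGF21, so every TBHP+FGF21 library was lower. That sum is mostly Stmn2, with a log2 fold change of -0.71. Snap25, the other neuron marker with counts, had 0.04, with replicates 1 and 3 of TBHP+FGF21 above every TBHP library and replicate 2 below. The 3 neuroendocrine markers summed to 0.188 to 0.499 CPM in TBHP and 0.192 to 0.332 CPM in TBHP+FGF21.

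Of the nucleus pulposus and notochord markers, 9 were in the table, Tbxt and Shh had no count in any library, and the sum, nearly all of it Acan, was 2520 to 2954 CPM in TBHP and 2877 to 4373 CPM in TBHP+FGF21. Of the 6 tested, 2 had a positive and 4 a negative log2 fold change, with a median of -0.30. Acan, the gene of the disc proteoglycan aggrecan, was higher by 0.40 and Sox9, its regulator, by 0.56. The others had -0.43 (Krt8, whose groups did not overlap), -0.55 (Cd24), -0.34 (Car3) and -0.26 (Col2a1). Tbxt and Shh were thus at 0, while 7 of the 9 had a count in at least 1 library. Most of these were low. Krt18 had 0 to 3 counts per library and was not tested, and Col2a1 had 9 to 14. Group means in TBHP and TBHP+FGF21 were 1.99 and 1.58 CPM for Car3 and 1.86 and 1.27 CPM for Cd24. For Krt8 they were 3.82 and 2.83 CPM. Col1a1, a fibroblast and annulus gene, was abundant. The 6 fibroblast and annulus markers, all with counts, summed to 39730 to 43940 CPM in TBHP and 29510 to 41590 CPM in TBHP+FGF21. That sum is nearly all Col1a1, at -0.19, whereas 4 of the 6 had a positive value and Pdgfra, a fibroblast receptor gene, was higher by 0.39, or by 0.58 without replicate 2 (adjusted p 0.0022 in edgeR's test). Col1a2, the partner chain of Col1a1, had only 7 to 17 counts per library. Of 5 macrophage markers, Ptprc and Adgre1 were at 0 and the sum was 1.41 to 2.23 CPM against 1.58 to 2.31 CPM. Of 3 endothelial markers in the table, Cdh5 and Kdr were at 0 and the sum was 0.281 to 0.503 CPM against 0.0474 to 0.527 CPM. Of 4 Schwann and glia markers, Sox10 was at 0 and the sum was 1.29 to 1.77 CPM against 1.72 to 2.13 CPM. The part of the markers that moved with the groups in the values of the 10 genes was not tested.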

How the data were processed

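Sequencing covered 6 rat NPC libraries, 3 of the TBHP group and 3 of the TBHP+FGF21 group, grouped by title and design text. For each library the authors deposited whole read counts by Ensembl identifier (unstranded and by strand), and also a combined table of raw counts per gene symbol. Because 22 of its rows are not whole, the deposited combined table was handled as estimated counts, and these rows were rounded to the nearest whole number. The submitters' processing notes name STAR and featureCounts. Their versions, the genome build and the annotation are not given in the sources used here. Unmapped, multimapping, unassigned and ambiguous reads (18.5% to 20.9% per library) stayed out of library sizes and tests. The kit is described as directional, but the ratio of the strand columns was 0.977 to 0.986, so strand was not used and reads of a gene and of an antisense partner cannot be told apart.

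Rows were linked to Ensembl identifiers by identical counts (13204 rows, including all 10 genes). The fit used edgeR 4.0.16 in R 4.3.3 with TMM, filterByExpr (minimum count 10, minimum total 15), the group as the only term, the quasi-likelihood test (glmQLFit, glmQLFTest) and Benjamini-Hochberg adjustment (11426 genes). SE was taken as the absolute log2 fold change over √F. The 1 gene with an adjusted p under 0.05 was Sirt1, named after its values were seen, whose TBHP counts in the combined table are not found in the per-sample files. No library repeated another (chi-square per gene 6.94 to 58.4 over all pairs). The fits were tested on simulated counts.

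The genes, the pathway and target lists and the markers were chosen with earlier results of these data known. The genes named were the 10, in each pathway class and among the targets the most abundant tested gene and that of lowest p, up to 8 genes per list with the lowest unadjusted p under 0.05, and the 5 most like Sik1 and Adcyap1r1. Of the target list, the table used here did not hold 5 symbols, which were not analysed here. Promoter windows came from RefSeq (GRCr8) by symbol. Alternatives were DESeq2 1.42.0 (Wald test, and size factors in edgeR), limma-voom (limma 3.58.1), other filters, the per-sample counts, a replicate block, leaving out each library, and only the library labelled FGF21.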

Additional observations from a re-analysis of the deposited data

How the results depend on the processing

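With 3 libraries a group, small differences in genes of few counts, such as Adcyap1r1, Sst and Pde4d, are imprecise. Of all genes tested, 1 had an adjusted p under 0.05, against 4 with DESeq2's Wald test, 5 with no filter on low counts and 325 with only the library labelled FGF21. It was 0 with limma-voom (996 genes at an unadjusted p under 0.05), 0 with the per-sample unstranded counts (1082) and 0 with the strand column 4 (1049). Leaving out each library gave 0 to 867 genes. The 867 came without TBHP+FGF21 replicate 2, and the unadjusted count was 337 to 2732. Of the 10 genes, 5 had an unadjusted p under 0.05, 3 with the strand column 4 and 3 to 5 with a library left out. For the other pathway genes the count was 5 to 16 and for the CREB targets 6 to 12 with a library left out. The share among genes with a whole CRE was 1.61% to 20.6% with a library left out, beside 2.84% to 23.4% of all genes with a window. The log2 fold change of Prkar1a turned to -0.0126 with only the library labelled FGF21, and with a library left out it ran from -0.0143 to 0.0815. The causes of these shifts were not tested.

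With the replicate number as a block, 2 genes had an adjusted p under 0.05, Nr4a1 among them. Unadjusted, the counts were then 5 of the 10 genes, 13 other pathway genes and 10 CREB targets, beside 1599 of all 11426 genes against 1019 without the block. The share among genes with a whole CRE was 11.6%, beside 13.6% of all genes with a window. Deviations of same-numbered libraries correlated at -0.12, 0.21 and 0.15, so the numbers were not taken to pair the libraries.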
